A study of Mus musculus with 6 samples.

Results

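The syndecans and glypicans are the main families of cell-surface heparan sulfate proteoglycans, and their 10 mouse genes (Sdc1, Sdc2, Sdc3 and Sdc4, and Gpc1, Gpc2, Gpc3, Gpc4, Gpc5 and Gpc6) were followed in cultured renal tubule epithelial cells (RTECs) exposed to TGF-β1. They were taken by gene symbol from the 46517 genes counted, and each symbol matched 1 gene. The rule uses no measured value, but the families were picked with earlier results of these data known. RNA sequencing covered 3 control (CTL) cultures and 3 cultures given 50 ng/ml TGF-β1 for 24 h. All 6 came from kidneys of wild-type FvB mice, 4 to 6 weeks of age in the sample labels and slightly younger males in the paper's methods. All 6 were grown with fetal bovine serum, EGF and insulin-transferrin-selenium and then kept in serum-free medium for 24 h before treatment, and the labels name no vehicle for CTL. The starting material was a collagenase digest of kidney passed through a mesh, not cells sorted for a tubule segment, and nothing in the labels says whether the 3 cultures of a group came from separate animals, so p-values measure the spread between these cultures.

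Syndecans span the plasma membrane, with heparan sulfate chains on the outer part and a short tail inside that binds PDZ and actin-linked proteins. Glypicans are held on the outer face of the membrane by a GPI anchor and carry their chains close to it. The chains bind growth factors and morphogens such as FGFs, BMPs, Wnts and hedgehogs, and matrix proteins such as fibronectin. In kidney, syndecan-1 and syndecan-4 are epithelial adhesion and injury molecules, and loss of glypican-3 disturbs kidney growth.

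Libraries held 28313080 to 34183497 reads on genes. Deviations from the group means went together between same-numbered CTL and TGF-β1 cultures (correlations of 0.445 to 0.738 across genes, against -0.688 to 0.289 for other pairs), so values with the replicate number as a block are given beside those without it. Replicate 2 stood apart in both groups. Its summed Y-linked transcripts (Ddx3y, Eif2s3y, Kdm5d and Uty) were at 151 and 142 CPM (counts scaled to the size of the library) and were at most 0.172 CPM in the other 4 cultures. Their near absence in those 4 conflicts with the male mice named in the paper's methods. A difference in sex and the other differences of replicate 2 cannot be told apart. Summed CPM of 8 fibroblast markers were 2901 and 3764 in replicate 2 and 1517 to 2371 in the others, and those of 6 kidney epithelial markers were 960 and 839 against 1696 to 2553. Among the fibroblast markers, Pdgfrb, Dcn, Col1a1, Col1a2 and Col3a1 were highest in replicate 2 of both groups. Postn was lowest there, at 331 CPM in CTL and 404 after TGF-β1, and so was the scarce Pdgfra, at 0.881 and 0.654. Among the epithelial markers, Cdh1, Epcam, Krt8 and Krt18 were lowest in replicate 2 of both groups. Cdh16 and Pax8 were lowest there after TGF-β1 only. In CTL replicates 1, 2 and 3, Cdh16 was at 302, 251 and 232 CPM and Pax8 at 212, 215 and 192 CPM. The fibroblast sum was also higher after TGF-β1 in each of the 3 pairs, at 1712 and 2371, 2901 and 3764, and 1517 and 1794 CPM for CTL and TGF-β1 replicates 1, 2 and 3. Of its 7 tested markers 0 passed without the block (edgeR, and 0 had an unadjusted p-value below 0.05). With it Col1a1, Col1a2 and Postn rose (edgeR adjusted p = 0.00628, 0.0145 and 0.00171) and Pdgfrb and Dcn fell (0.000431 and 0.0256). Of the epithelial markers, Cdh16 and Pax8 fell with TGF-β1, 2.84-fold and 1.71-fold lower (edgeR adjusted p = 0.00922 and 0.00436), and Cdh1, Epcam, Krt8 and Krt18 did not pass. With the block Cdh1 and Epcam also fell, by 0.18 and 0.15 on the log2 scale (edgeR adjusted p = 0.0194 and 0.0376). Summed CPM of 8 proximal tubule markers were 77.7 to 93.3 in CTL and 35.7 to 49.5 after TGF-β1. Most of that sum was Lrp2, at means of 69.6 and 36.5 CPM. Of the 4 markers tested, Lrp2 and Aqp1 fell (edgeR adjusted p = 0.0165 and 0.00919). Cubn, at means of 4.49 and 4.80 CPM, and Slc5a12 did not pass either fit. The part of these marker shifts in the results that follow was not tested. The mature proximal tubule transporters Slc34a1 and Slc5a2 had at most 10 counts in any library. In bulk RNA, fewer cells of a type and less RNA per cell cannot be told apart.

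At baseline Sdc4 was the most abundant of the 10 transcripts and Gpc4 the next. Levels between genes were compared as CPM per kb of exon after TMM scaling, which adjusts for library size and composition. In CTL, Sdc4 had 184 ± 3.66 CPM per kb and Gpc4 132 ± 28.1 (SD, n = 3 each). Sdc2 followed at 66.1 ± 15.2, Sdc3 at 41.0 ± 2.02, Sdc1 at 36.8 ± 1.11 and Gpc1 at 31.3 ± 3.10 CPM per kb. Gpc6 was at 13.1 ± 3.93, and Gpc2, Gpc3 and Gpc5 were scarce, at 1.78 ± 0.0535, 1.62 ± 0.181 and 0.280 ± 0.0496 CPM per kb. The ranges of neighbours in this order did not overlap in CTL, except for Gpc2 and Gpc3. The order of the means was the same after TGF-β1, but the ranges of Gpc4 and Sdc2, and of Sdc1 and Gpc1, then overlapped. Exons of Gpc2 share 2376 of their 4274 bp with Gm43720 on the same strand, and reads that fit more than 1 gene were set apart, so the level of Gpc2 may be understated.

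With TGF-β1, Sdc3, Gpc1 and Gpc2 rose and Gpc3 and Gpc5 fell at an adjusted p-value under 0.05 (edgeR quasi-likelihood test, adjusted over 15862 genes). That is 5 of 10 members, beside 11.7% of all genes tested, and the shares were not compared by a test. By direction, the 3 rises stand beside 5.00% of all genes and the 2 falls beside 6.69%. With the replicate block, 5 members rose (Sdc1 and Sdc2 in addition) and 4 fell (Sdc4 and Gpc4 in addition). These 9 stand beside 34.2% of all genes called with the block, 15.1% higher and 19.1% lower, and Gpc6 did not pass. CTL and TGF-β1 values did not overlap for 7 of 10 members, beside 35.1% of all genes tested. All 10 members passed the filter on low counts, Gpc5 through its CTL libraries alone. The median log2 fold change was 0.34 over the members and 0.00 over all genes tested.

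**Figure D1:**
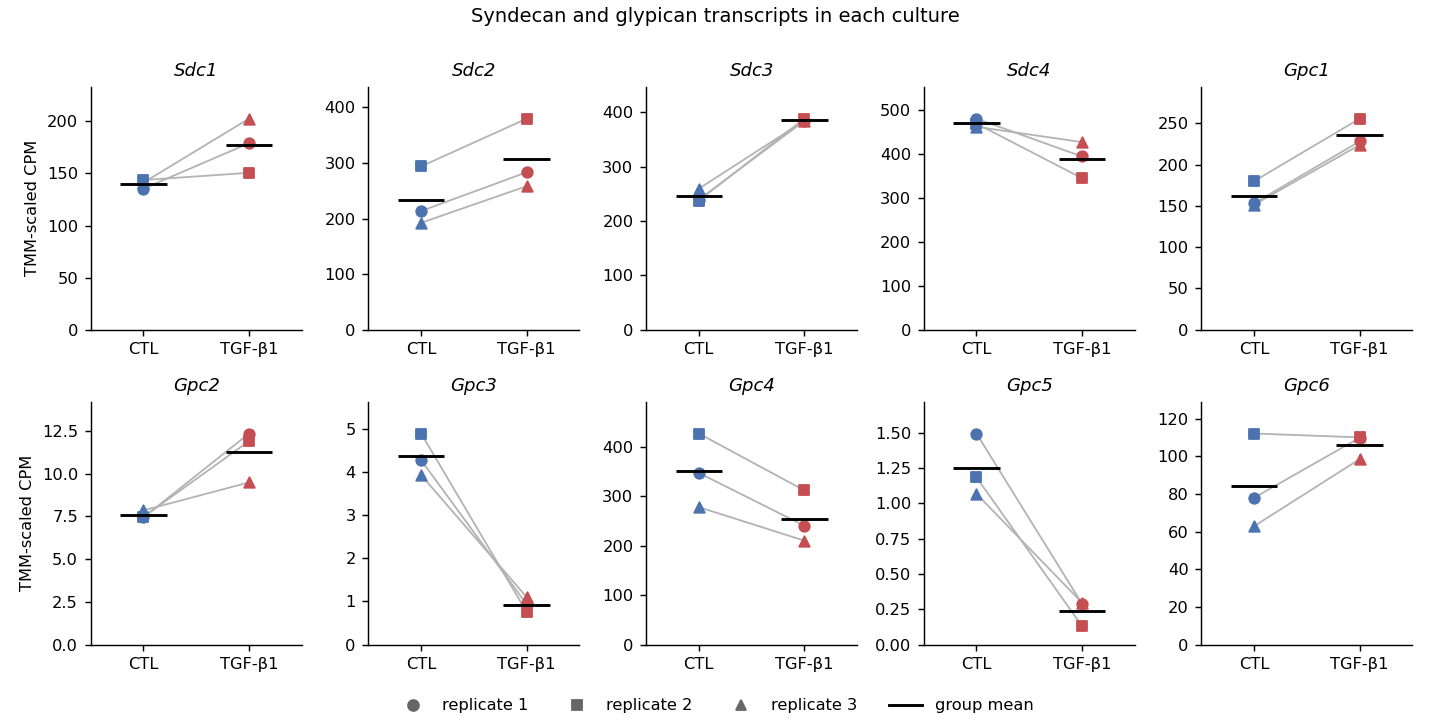
TMM-scaled CPM (linear axes from 0) of each member in the 3 CTL and 3 TGF-β1 cultures, with symbols for the replicate numbers, grey lines joining cultures of the same number and black bars for group means. Sdc3 rose to nearly the same value in all 3 cultures, 384 to 388 CPM, and Gpc3 and Gpc5 dropped in every pair, while Sdc2 and Gpc4 moved in parallel from different starting values.

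Sdc3 (syndecan-3; ENSMUSG00000025743.13, GRCm38 chromosome 4, 130792537 to 130826319, plus strand) is known best from the nervous system. Its CPM were 239, 237 and 259 in CTL replicates 1, 2 and 3 and 384, 388 and 384 in TGF-β1 replicates 1, 2 and 3. All TGF-β1 values lay above all CTL values, and they had an SD of only 2.31 CPM. The log2 fold change was 0.65 (standard error 0.05, edgeR adjusted p = 0.00349), a 1.57-fold rise. It held when any 1 culture was left out, from 0.63 to 0.69, with adjusted p-values up to 0.0342 (edgeR). Antisense genes overlap 463 bp of its exons, and whether the counting used strand is not given in the sources used here.

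Sdc4 (syndecan-4; ENSMUSG00000017009.3, chromosome 2, 164424247 to 164443887, minus strand) is a fibronectin co-receptor of focal adhesions. Its CPM were 479, 468 and 461 in CTL and 393, 344 and 426 after TGF-β1. The groups did not overlap, and the treated cultures were more spread out than the controls. The log2 fold change was -0.28 (standard error 0.09) with an edgeR adjusted p = 0.091, and with the replicate block it fell by 0.28 on the log2 scale (edgeR adjusted p = 0.0125). Sdc4 was the only syndecan with a negative fold change.

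Sdc1 (syndecan-1, the syndecan of simple epithelia; ENSMUSG00000020592.13, chromosome 12, 8771323 to 8793715, plus strand) had 135, 144 and 141 CPM in CTL and 179, 151 and 203 CPM after TGF-β1. Replicate 2 had the smallest difference, a log2 ratio of 0.07 between its pair against 0.40 and 0.52 in replicates 1 and 3. The log2 fold change was 0.34 (standard error 0.11, edgeR adjusted p = 0.0949). It passed with the replicate block (0.33, edgeR adjusted p = 0.0226), and without the block once TGF-β1 replicate 2 was left out (0.44, edgeR adjusted p = 0.0275).

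Sdc2 (syndecan-2, common in mesenchymal cells; ENSMUSG00000022261.5, chromosome 15, 32920723 to 33034935, plus strand) had 213, 294 and 192 CPM in CTL and 283, 380 and 258 CPM after TGF-β1. Replicate 2 was highest in both groups, so the groups overlapped although each pair rose, by log2 ratios of 0.41, 0.37 and 0.43. Without the block the log2 fold change was 0.40 (95% confidence interval -0.11 to 0.91, edgeR adjusted p = 0.273). With it the value was 0.40 with an interval of 0.30 to 0.50 (edgeR adjusted p = 0.000295). Replicate 2 was also the highest in the summed fibroblast markers, though not in each of them, and the only pair with Y-linked transcripts. The part of either in the level of Sdc2 was not tested. Without both replicate 2 cultures the Sdc2 log2 fold change was 0.42 (edgeR adjusted p = 0.0211).

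Gpc1 (glypican-1; ENSMUSG00000034220.7, chromosome 1, 92831645 to 92860779, plus strand) is a widely expressed FGF co-receptor. Its CPM were 153, 180 and 152 in CTL and 228, 256 and 224 after TGF-β1. The groups did not overlap and the 3 pairs gave near-equal log2 ratios of 0.57, 0.51 and 0.56. The log2 fold change was 0.55 (standard error 0.09, edgeR adjusted p = 0.0168). Leaving out CTL replicate 1 raised the edgeR adjusted p-value to 0.0897, and leaving out TGF-β1 replicate 1 raised it to 0.0671, at log2 fold changes of 0.51 and 0.57. Ankmy1, on the other strand, overlaps 977 of the 5159 bp of Gpc1 exons, and whether the counting used strand is not given, as for Sdc3.

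Gpc2 (glypican-2; ENSMUSG00000029510.14, chromosome 5, 138273655 to 138280005, minus strand), a glypican of developing neurons, had 7.44, 7.47 and 7.85 CPM in CTL and 12.4, 11.9 and 9.49 CPM after TGF-β1. The CTL cultures were nearly equal and all lay below the treated ones. The log2 fold change was 0.57 (standard error 0.12, edgeR adjusted p = 0.0349), and the call rested on all 6 cultures. It was lost in 5 of the 6 fits without 1 culture, with edgeR adjusted p-values of 0.148, 0.0834 and 0.0736 without CTL replicates 1, 2 and 3 and 0.127 and 0.0859 without TGF-β1 replicates 1 and 2. Its log2 fold change stayed between 0.50 and 0.68 in those 6 fits, and the fit with the replicate block kept the call (0.56, edgeR adjusted p = 0.00533).

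Gpc3 (glypican-3; ENSMUSG00000055653.12, chromosome X, 52272426 to 52613950, minus strand) is a growth-restraining, hedgehog-binding glypican that is high in the embryo. It was counted at 140, 161 and 114 reads in CTL replicates 1, 2 and 3 and at 29, 23 and 37 reads after TGF-β1. These are 4.27, 4.89 and 3.93 CPM against 0.930, 0.752 and 1.10 CPM, so that the lowest CTL culture was well above the highest treated one. Gpc3 fell by 2.23 on the log2 scale (standard error 0.19, edgeR adjusted p = 0.00362), 4.68-fold lower. This held in all 6 fits that left out 1 culture, from -2.37 to -2.10, with adjusted p-values of at most 0.0349 (edgeR). It also lies on the X chromosome, and the cultures with Y-linked transcripts had the highest CTL value and the lowest treated value.

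Gpc5 (glypican-5; ENSMUSG00000022112.13, chromosome 14, 115092215 to 116525179, plus strand) was the scarcest member. Its reads numbered 49, 39 and 31 in CTL and 9, 4 and 10 after TGF-β1, against a floor of 3 reads taken as the limit that a count of 0 allows. In CPM this was 1.49, 1.18 and 1.07 against 0.289, 0.131 and 0.297. Gpc5 fell by 2.36 on the log2 scale (standard error 0.33, edgeR adjusted p = 0.011), 5.14-fold lower, with a 95% confidence interval of -3.15 to -1.57. Leaving out CTL replicate 1 gave an edgeR adjusted p = 0.059 and leaving out TGF-β1 replicate 1 gave 0.0538, at log2 fold changes of -2.21 and -2.51. The filter that asked for 10 counts in every library removed it.

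Gpc4 (glypican-4; ENSMUSG00000031119.4, chromosome X, 52053021 to 52165252, minus strand) made up most glypican transcripts. Its CPM were 347, 427 and 278 in CTL and 240, 312 and 210 after TGF-β1. As with Sdc2, replicate 2 was highest in both groups and the groups overlapped, while the log2 ratios within pairs were alike at -0.53, -0.45 and -0.40. Without the block the log2 fold change was -0.46 (95% confidence interval -0.96 to 0.03, edgeR adjusted p = 0.198). With the replicate block Gpc4 fell by 0.46 on the log2 scale, with an interval of -0.57 to -0.36 (edgeR adjusted p = 0.000227). Without both replicate 2 cultures and without the block the value was -0.47 (edgeR adjusted p = 0.0642).

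Gpc6 (glypican-6, another mesenchymal glypican; ENSMUSG00000058571.9, chromosome 14, 116925315 to 117976544, plus strand) had 78.0, 112 and 62.9 CPM in CTL and 110, 110 and 98.6 CPM after TGF-β1. CTL replicate 2 was as high as the treated cultures, and its pair had a log2 ratio of -0.03 against 0.49 and 0.65 in the other pairs. The log2 fold change was 0.33 (95% confidence interval -0.17 to 0.84, edgeR adjusted p = 0.353), and 0.37 with the replicate block (edgeR adjusted p = 0.0785). Without CTL replicate 2 it was 0.59 (edgeR adjusted p = 0.0407), and without both replicate 2 cultures 0.56 (edgeR adjusted p = 0.0334).

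**Figure D2:**
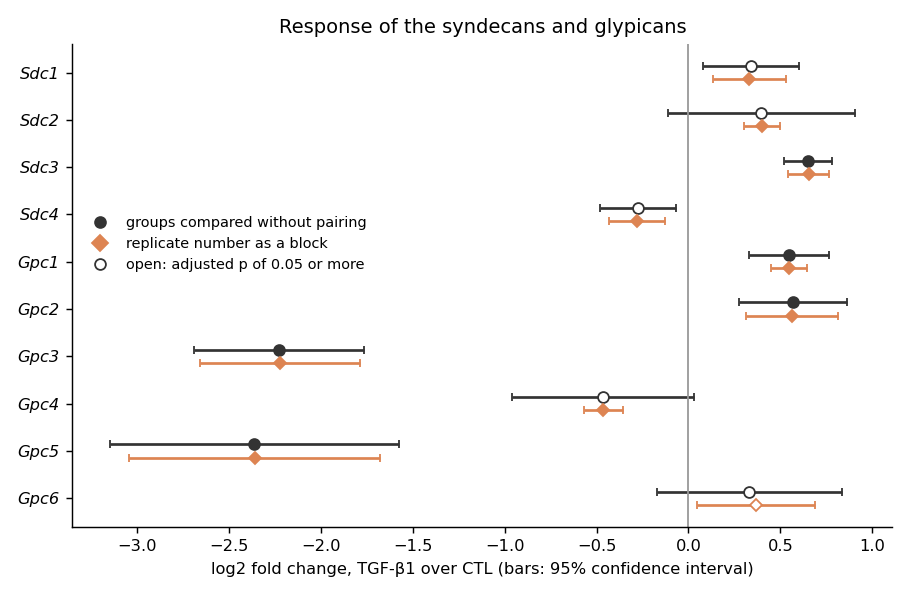
Log2 fold changes of the 10 members with 95% confidence intervals, from edgeR without pairing (circles) and with the replicate number as a block (diamonds). Filled symbols have an adjusted p-value under 0.05. The block left the estimates in place and narrowed the intervals of Sdc2 and Gpc4 most, and Gpc3 and Gpc5 lie at -2.23 and -2.36, away from the other 8.

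The make-up of each family also differed between the groups. Each member was expressed as a percentage of its family's summed counts per kb within a library, a measure that does not depend on scaling between libraries. Sdc4 made up 58.0%, 53.4% and 57.3% of the syndecan sum in CTL and 44.7%, 38.9% and 46.7% after TGF-β1. Sdc3 made up 12.3%, 11.5% and 13.7% in CTL and 18.5%, 18.7% and 17.9% after TGF-β1. Neither set of values overlapped (two-sided exact permutation test, p = 0.1 each, the smallest that 3 against 3 can give, and 0.125 after adjustment over 10 shares). Sdc1 moved from 11.2% to 13.3% and Sdc2 from 20.0% to 24.9% in the mean, with overlapping values (exact permutation p = 0.2 and 0.3).

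Among glypicans, Gpc4 made up 74.2%, 74.1% and 71.1% of the sum in CTL and 58.4%, 62.8% and 56.3% after TGF-β1. Its share separated the groups although its CPM did not. The share of Gpc1 went from 16.8%, 16.1% and 19.9% to 28.5%, 26.5% and 30.9%. Gpc6 moved from a mean of 7.18% to 10.4% and Gpc2 from 1.01% to 1.64%, while Gpc3 went from 0.908% to 0.221% and Gpc5 from 0.158% to 0.0349%. All 6 glypican shares were free of overlap (exact permutation p = 0.1 each, adjusted 0.125). The shares of a family, syndecans included, add up to the whole, so they are not separate results. A smaller share of Gpc4 means a larger share for the other glypicans together. The CPM of Gpc6 overlapped between the groups, and Gpc6 did not pass either fit.

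The family sums moved little. Summed syndecan levels were 316 to 344 CPM per kb in CTL and 346 to 358 after TGF-β1, a ratio of means of 1.07 with no overlap (two-sided exact permutation test, p = 0.1). Summed glypican levels were 148 to 217 CPM per kb in CTL and 141 to 187 after TGF-β1, a ratio of means of 0.893 with overlap (exact permutation p = 0.6). No p-value under 0.1 is possible with 3 cultures a group.

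**Figure D3:**
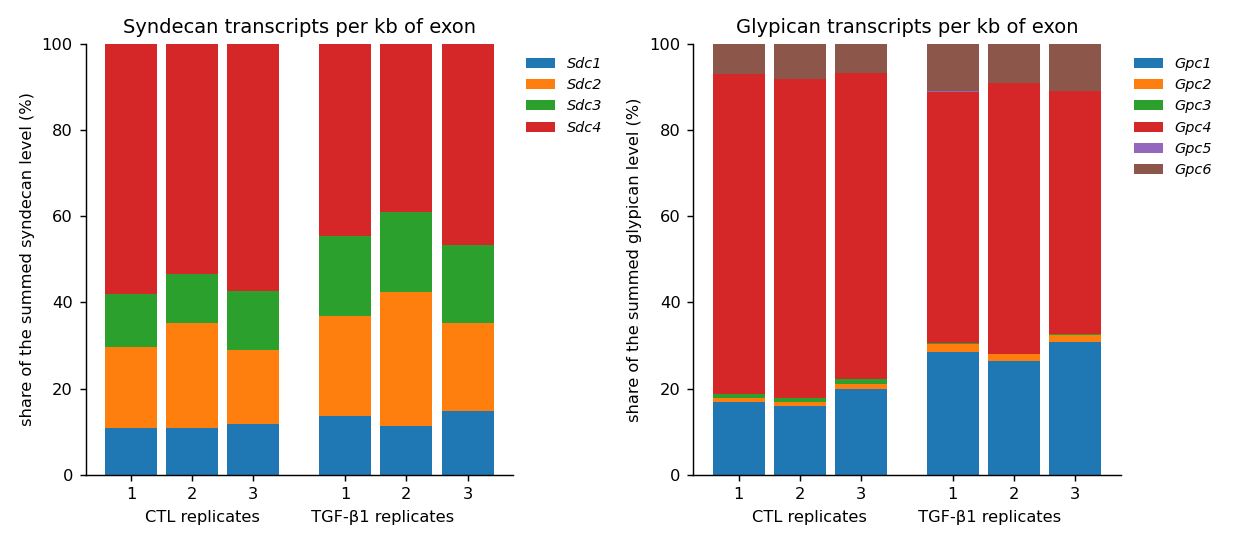
Stacked bars of each member's share (percent) of the summed syndecan level, left, and glypican level, right, in counts per kb of exon, for the 3 CTL and 3 TGF-β1 cultures. Sdc4 and Gpc4 take smaller shares in every TGF-β1 culture than in any CTL culture, and Sdc3, Gpc1 and Gpc6 take larger ones.

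4 of the 6 glypicans lie in neighbouring pairs. Gpc4 and Gpc3 are 107173 bp apart on chromosome X and Gpc5 and Gpc6 are 400135 bp apart on chromosome 14, with 0 protein-coding genes annotated between the partners. The X-linked partners both had negative log2 fold changes, -0.46 for Gpc4 and -2.23 for Gpc3. The partners on chromosome 14 differed in sign, at -2.36 for Gpc5 and 0.33 for Gpc6.

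RefSeq promoter windows were found for 7 of the 10 members, and those of Gpc1, Gpc6 and Sdc2 were not. The 250 bases before the RefSeq start are shown for Sdc3, the syndecan that rose most, and for Gpc3, Gpc4 and Gpc5, the glypicans with negative fold changes, to let their sequence be compared. They lie at chr4:130792287-130792536 (plus strand), chrX:52613975-52614224 (minus), chrX:52164924-52165173 (minus) and chr14:115091965-115092214 (plus) of GRCm38.p6 and are written 5′ to 3′ on the gene's strand. Capitals mark matches on either strand to CAGAC (the Smad box), TGANTCA (AP-1), CACCTG (an E-box), GGGCGG (the GC box) or TATAAA.
Sdc3: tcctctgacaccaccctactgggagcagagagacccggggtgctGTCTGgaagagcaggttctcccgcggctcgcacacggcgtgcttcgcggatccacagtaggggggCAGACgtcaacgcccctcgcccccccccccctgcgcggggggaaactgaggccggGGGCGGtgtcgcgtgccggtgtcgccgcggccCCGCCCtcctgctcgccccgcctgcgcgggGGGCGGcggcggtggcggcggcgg
Gpc3: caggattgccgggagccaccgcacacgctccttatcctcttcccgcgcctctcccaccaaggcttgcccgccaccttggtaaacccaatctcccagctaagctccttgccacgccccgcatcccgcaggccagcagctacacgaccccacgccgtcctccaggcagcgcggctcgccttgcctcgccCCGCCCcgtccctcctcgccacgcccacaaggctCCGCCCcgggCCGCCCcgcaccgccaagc
Gpc4: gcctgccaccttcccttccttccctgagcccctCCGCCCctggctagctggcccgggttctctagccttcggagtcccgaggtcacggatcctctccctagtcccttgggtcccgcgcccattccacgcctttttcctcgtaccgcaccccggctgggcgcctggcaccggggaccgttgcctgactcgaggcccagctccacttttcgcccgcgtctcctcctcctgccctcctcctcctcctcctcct
Gpc5: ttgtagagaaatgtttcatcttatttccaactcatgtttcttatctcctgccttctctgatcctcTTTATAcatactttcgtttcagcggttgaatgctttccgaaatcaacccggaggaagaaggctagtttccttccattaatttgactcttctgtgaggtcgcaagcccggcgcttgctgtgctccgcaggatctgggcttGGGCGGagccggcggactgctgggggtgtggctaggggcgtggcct
Sdc3 had 2 Smad box matches, and Gpc3, Gpc4 and Gpc5 had 0. A Smad box match is in 42.2% of all 32851 promoter windows of this length. GC box matches numbered 3, 3, 1 and 1 in Sdc3, Gpc3, Gpc4 and Gpc5, and 32.7% of all windows hold at least 1. Base composition set Gpc5 apart, with 51.2% G and C and 12 CpG sites, from Sdc3 (76.4% and 32), Gpc3 (71.6% and 25) and Gpc4 (68.4% and 18), and all windows had a median of 52.4% and 6. Of the other 3 windows, 1 Smad box match was in that of Sdc1 and 0 were in those of Sdc4 and Gpc2. The windows of Gpc4 and Sdc4 lie wholly inside their genes as placed above, and those of Sdc1 and Gpc2 lie partly inside. These genes are annotated to start further upstream than the RefSeq start, so their windows are not upstream sequence alone. AP-1 and E-box matches were in 0 of the 7 windows, against 6.75% and 17.2% of all windows.

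The enzymes, partners and ligands of heparan sulfate were followed in 6 lists of 83 genes, of which 74 passed the filter on low counts. 8 rose and 7 fell at an adjusted p-value under 0.05 (edgeR), beside the 5.00% and 6.69% of all genes. With the replicate block 17 rose and 17 fell, beside 15.1% and 19.1%. The median log2 fold change of the 74 was -0.02.

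Of 12 genes that build the linker and the chain, B4galt7 rose, and with the replicate block 3 rose and 1 fell. B4galt7, which adds the first galactose of the linker, had 39.1, 36.9 and 39.2 CPM in CTL and 54.7, 55.6 and 56.8 after TGF-β1. The groups were far apart for their spread (log2 fold change 0.54, standard error 0.05, edgeR adjusted p = 0.00379). Xylt1, a xylosyltransferase that starts the chain, and Extl3, which adds the first residue of the polymer, passed with the block alone, at log2 fold changes of 0.85 and 0.20 (edgeR adjusted p = 0.000528 and 0.00794). The polymerase genes Ext1 and Ext2 did not pass either fit. Extl1, at a mean of 0.966 CPM in CTL, was the gene that fell with the block.

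Of 17 tested genes for sulfation and epimerization, Glce rose and Ndst1 and Ndst3 fell. Ndst1, the main N-deacetylase and N-sulfotransferase of most tissues, had 366, 351 and 366 CPM in CTL and 275, 257 and 271 CPM after TGF-β1, with no overlap. Its log2 fold change was -0.43 (standard error 0.05, edgeR adjusted p = 0.00759). The scarcer Ndst3 had 1.88 to 2.68 CPM in CTL and 0.738 to 0.949 after TGF-β1 (log2 fold change -1.37, edgeR adjusted p = 0.0139). Glce, the epimerase that turns glucuronic into iduronic acid, had a log2 fold change of 0.36 (edgeR adjusted p = 0.0225). With the block 2 genes rose and 4 fell, and it added Hs3st3a1 (0.31, edgeR adjusted p = 0.0237), a 3-O-sulfotransferase, and Hs6st2 (-0.52, edgeR adjusted p = 0.00057), a 6-O-sulfotransferase. Hs3st4, at a mean of 0.834 CPM in CTL, was the other fall.

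Of 17 tested genes for editing, release and breakdown, 2 rose and 2 fell. Hpse, the heparanase that cuts the chains, was counted at 81, 67 and 52 reads in CTL and at 10, 13 and 10 reads after TGF-β1. The treated libraries of Hpse would not have met the filter on low counts by themselves, so it was tested because of its CTL libraries. Hpse fell by 2.59 on the log2 scale, 6.01-fold lower (standard error 0.24, edgeR adjusted p = 0.00379). Sgsh, the lysosomal sulfamidase, fell by 0.50 (edgeR adjusted p = 0.00873). The proprotein convertases Furin and Pcsk5 rose. Furin-like convertases cleave glypican core proteins. Furin went from 257 to 304 CPM in CTL to 383 to 427 after TGF-β1 (log2 fold change 0.53, edgeR adjusted p = 0.0131), and Pcsk5 from a mean of 13.4 to 32.5 CPM (1.27, edgeR adjusted p = 0.0182). With the block the rises were still 2 and the falls were 6, among them Gpld1, a GPI phospholipase (-0.29, edgeR adjusted p = 0.0177), and Pcsk6, a further convertase (-0.68, edgeR adjusted p = 0.000704). The lysosomal enzyme genes Naglu and Hgsnat were the other additions.

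Of 9 cytoplasmic partners of syndecans, Actn1, an α-actinin that links syndecan-4 to actin, rose from 1409 to 1550 CPM in CTL to 2106 to 2377 after TGF-β1 (log2 fold change 0.63, standard error 0.08, edgeR adjusted p = 0.0089). With the block Tiam1, a Rac activator, also rose (0.33, edgeR adjusted p = 0.0125), and Sdcbp fell (-0.14, edgeR adjusted p = 0.0328). Sdcbp encodes syntenin, which binds the end of the syndecan tail.

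Tgfbr3 encodes betaglycan, a membrane proteoglycan that binds TGF-β itself. Its CPM were 25.5, 24.4 and 17.9 in CTL and 10.3, 7.79 and 9.13 after TGF-β1. It fell by 1.32 on the log2 scale (standard error 0.17, edgeR adjusted p = 0.00925), with no overlap between groups. The part-time heparan sulfate carriers Cd44 and Nrp1 passed with the block alone, at 0.67 and 0.15 (edgeR adjusted p = 0.000277 and 0.0445), and did not without it (edgeR adjusted p = 0.0644 and 0.624).

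Of 16 tested ligands that bind heparan sulfate, Hbegf, Vegfa and Pdgfa rose and Bmp2 and Fgf10 fell. Hbegf, an EGF receptor ligand, had 270, 297 and 290 CPM in CTL and 487, 707 and 433 after TGF-β1 (log2 fold change 0.92, edgeR adjusted p = 0.0318). Vegfa and Pdgfa had log2 fold changes of 0.75 and 0.71 (edgeR adjusted p = 0.0237 and 0.00851). Bmp2 went from a mean of 5.33 CPM in CTL to 1.68 after TGF-β1 (-1.66, edgeR adjusted p = 0.00379). Fgf10 had 30, 85 and 17 reads in CTL and 3, 5 and 1 after TGF-β1 (edgeR adjusted p = 0.0384), at or near the floor of 3 reads, so no fold is given. Like Gpc5, Fgf10 passed the filter on low counts through its CTL libraries alone, and a gene as low in both groups would not have been tested. With the block 6 ligands rose and 4 fell. It added Fgf2 (1.14, edgeR adjusted p = 1.87e-05), Wnt5a (0.77, edgeR adjusted p = 6.23e-05) and Mdk, and Bmp4 (-0.66, edgeR adjusted p = 0.000812) and Fgf7 (-0.60, edgeR adjusted p = 0.0196).

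The 15 calls made without the block differed in how far they depended on single cultures. B4galt7, Hpse and Bmp2 passed whichever single culture was removed, with adjusted p-values of at most 0.0362 (edgeR). The other 12 lost the call without CTL replicate 1, with adjusted p-values of up to 0.137 (edgeR). Of these 12, 8 also lost it without TGF-β1 replicate 1, and each of the other 4 cultures cost 2 calls. Glce lost the call in 5 of the 6 fits, with adjusted p-values of up to 0.112 (edgeR). Fgf10 and Hbegf lost it in 4 fits each, with adjusted p-values of up to 0.133 and 0.137 (edgeR). Hbegf also lost it with a filter of at least 1 count (edgeR adjusted p = 0.0628). Ndst1, Sgsh, Tgfbr3 and Pdgfa depended on CTL replicate 1 alone, with adjusted p-values of 0.0557, 0.0557, 0.0505 and 0.054 without it (edgeR).

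**Figure D4:**
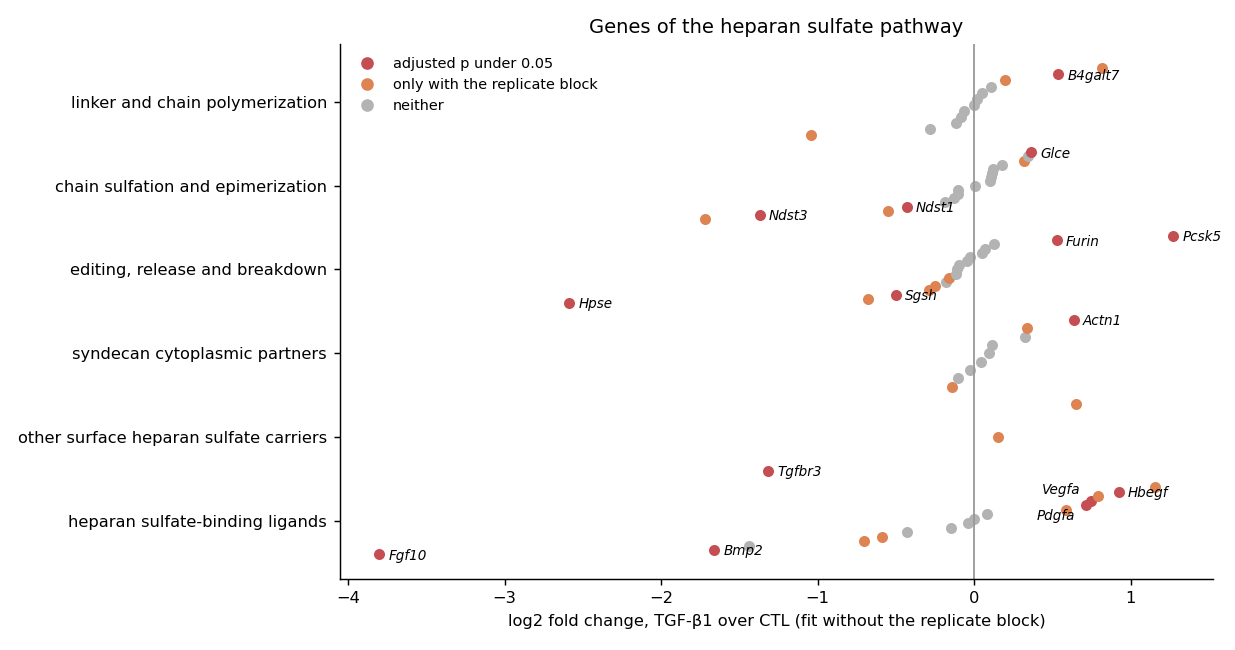
Log2 fold changes (fit without the replicate block) of the 74 tested heparan sulfate genes by list, 1 point a gene, with genes under an adjusted p-value of 0.05 in red and named, those under it only with the replicate block in orange, and the rest in grey. Of the named genes, Hpse, Bmp2, Ndst3 and Tgfbr3 lie far below 0 and Pcsk5 far above it. The point of Fgf10 is a fitted value that rests on 1 to 5 reads in the treated cultures.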

How the data were processed

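RNA sequencing of 3 CTL and 3 TGF-β1–treated cultures was analysed. The authors deposited read counts per gene, unnormalized, from single-end reads of poly(A) mRNA (made from 100 ng RNA) trimmed with Trim Galore, aligned to GRCm38 with STAR 2.4.1d and counted with HTSeq 0.6.1. The counting mode and strand setting are not given in the sources used here. Reads mapping to several places (18.7% to 19.4% of all listed reads), to no gene (4.16% to 4.93%) or to several genes (1.88% to 1.97%) had been set apart and entered neither totals nor tests, so genes that share exons are undercounted.

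Symbols, positions and union exon lengths came from GENCODE M21, which matched 46005 of 46517 identifiers. Counts were tested in R 4.3.3 with edgeR 4.0.16 (filterByExpr, TMM, robust glmQLFit, glmQLFTest). P-values were two-sided, were adjusted by the Benjamini-Hochberg method for the 15862 genes tested, and were called under 0.05. Standard errors came from the F statistic. CPM were TMM-scaled. The study's methods describe no pairing, so the replicate number was left out of the main comparison and used as a block in an alternative. The numbers come from the labels, and same-numbered cultures deviated together (correlations of 0.445, 0.738 and 0.648 for replicates 1, 2 and 3). No 2 libraries matched within sampling noise (lowest chi-square per degree of freedom 9.02). A floor of 3 counts is 0.0878 to 0.106 CPM. Without molecular identifiers it covers counting error only.

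Other alternatives were DESeq2 1.42.0, RLE or library-size scaling, other filters, an adjusted p-value of 0.01, shares without division by exon length, leaving out each culture, and leaving out both cultures of replicate 2. Leaving out both cultures of replicate 1 or 3, and the block without replicate 2, were added after seeing the data. The fits were tested on simulated counts. Motifs were searched in RefSeq promoter windows (GRCm38.p6). Figures used matplotlib 3.10.9.

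The members and the gene lists were chosen with earlier results of these data known. All members are named. Of the lists, the text gives genes past 0.05 without the block, and up to 2 rises and 2 falls a list past it with the block alone, with a mean of at least 1 CPM. Extl1, Hs3st4, Naglu, Hgsnat, Mdk, Ext1 and Ext2 were named outside this rule after their values were seen. Lists for tubule segments, endothelial cells, leukocytes, podocytes and urothelium were also summed. From CTL to TGF-β1 cultures, in CPM, the proximal tubule list ran from 77.7 to 93.3 against 35.7 to 49.5 and the thick ascending limb and distal tubule list from 5.04 to 10.3 against 2.62 to 5.90. The collecting duct list ran from 0.759 to 1.48 against 0.294 to 0.738, endothelial from 36.4 to 51.9 against 22.8 to 35.2, and leukocyte from 4.92 to 16.1 against 5.27 to 15.1. The podocyte list ran from 446 to 683 against 358 to 417, and urothelium from 0.275 to 0.620 against 0.353 to 0.523.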

Additional observations from a re-analysis of the deposited data

How the results depend on the processing

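DESeq2, RLE scaling, library size only and a filter of at least 1 count left the direction and call of each of the 10 members as they were, and the filter of 10 counts in every library did so for the 9 members it kept. It left 1 member lower, since Gpc5 was removed. The replicate block changed 4 calls among the members, all to an adjusted p-value under 0.05, at log2 fold changes of 0.33 for Sdc1, 0.40 for Sdc2, -0.28 for Sdc4 and -0.46 for Gpc4. It gave 5 members higher and 4 lower, 17 and 17 heparan sulfate pathway genes, and 2388 and 3037 of all genes. The block without replicate 2 gave 0.46 for Sdc1, 0.42 for Sdc2, -0.20 for Sdc4, -0.47 for Gpc4 and 0.57 for Gpc6, with 6 members higher and 4 lower, 15 and 17 pathway genes, and 2288 and 2718 of all genes. An adjusted p-value of 0.01 left 1 member higher and 1 lower, 3 pathway genes higher, and 127 and 192 of all genes. The pathway genes lower at that threshold were Bmp2, Hpse, Ndst1, Sgsh and Tgfbr3. Library size only left 508 genes higher.

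Without 1 culture, log2 fold changes ran from 0.23 to 0.44 for Sdc1, 0.21 to 0.60 for Sdc2, 0.63 to 0.69 for Sdc3, -0.35 to -0.20 for Sdc4, 0.48 to 0.63 for Gpc1, 0.50 to 0.68 for Gpc2, -2.37 to -2.10 for Gpc3, -0.64 to -0.30 for Gpc4, -2.55 to -2.09 for Gpc5 and 0.16 to 0.59 for Gpc6, and counts from 1 to 3 members higher and 1 to 2 lower, 1 to 7 and 2 to 8 pathway genes, and 109 to 516 and 186 to 807 of all genes. Without both cultures of a replicate number they ran from 0.24 to 0.47 for Sdc1, 0.39 to 0.42 for Sdc2, 0.62 to 0.70 for Sdc3, -0.36 to -0.20 for Sdc4, 0.53 to 0.57 for Gpc1, 0.48 to 0.70 for Gpc2, -2.44 to -2.01 for Gpc3, -0.49 to -0.43 for Gpc4, -2.65 to -2.12 for Gpc5 and 0.21 to 0.56 for Gpc6, and counts from 0 to 5 members higher and 0 to 2 lower, 0 to 13 and 0 to 7 pathway genes, and 0 to 1084 and 0 to 1290 of all genes, so each of the 10 kept its sign. Leaving out both replicate 3 cultures ended the calls of Gpc1 (0.54), Gpc2 and Gpc5 (edgeR adjusted p = 0.0982, 0.0627 and 0.0658) and left 95 genes higher and 190 lower. Leaving out both replicate 2 cultures ended that of Gpc2 (0.51, edgeR adjusted p = 0.079). Leaving out both replicate 1 cultures gave 0 calls among all genes (edgeR), with 1938 at an unadjusted p-value below 0.05. Log2 fold changes there were 0.64 for Sdc3, -2.25 for Gpc3 and -2.36 for Gpc5. Of the other named genes, Nrp1 changed sign once, to -0.0094 without TGF-β1 replicate 2, and reached 0.30 without CTL replicate 2. Shares and family sums kept their direction in each alternative. The cause of these changes was not tested beyond the smaller number of samples or genes. Depth limits Gpc5, Fgf10 and other genes of a few reads.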

Other observations

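Protein-coding genes within 1 Mb of the paired glypican loci were listed after their values had been seen, with no test of the loci as a group. Around Gpc4 and Gpc3 on chromosome X, 9 of 14 other genes could be tested, and 0 rose and 1 fell (edgeR, 0 and 4 with the replicate block). Over all genes tested 5.00% rose and 6.69% fell, and 15.1% and 19.1% with the block. The fall was that of Mbnl3, a splicing factor, from 3.79 ± 0.554 to 1.54 ± 0.525 CPM (SD, n = 3 each, log2 fold change -1.30, edgeR adjusted p = 0.0334). The Mbnl3 call was lost in 5 of 6 fits that left out 1 culture, all but that without TGF-β1 replicate 3, with adjusted p-values of up to 0.124 (edgeR). Hs6st2, the 6-O-sulfotransferase gene described above, is among the 4. Around Gpc5 and Gpc6, 7 of 9 other genes could be tested, and 0 rose and 1 fell (edgeR, 1 and 3 with the block), beside the same shares of all genes. The fall was that of Abcc4, an organic anion exporter of the proximal tubule, from 220 ± 15.5 to 98.8 ± 27.9 CPM (SD, n = 3 each, log2 fold change -1.16, edgeR adjusted p = 0.0221). The Abcc4 call was lost without CTL replicate 1, CTL replicate 3 or TGF-β1 replicate 1, with adjusted p-values of up to 0.0932 (edgeR).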
